A study of Mus musculus with 27 samples.

Results

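The genes described here are 10 that encode fatty acid binding and uptake proteins: Fabp1, Fabp2, Fabp4, Fabp5, Fabp7, Cd36, Slc27a1, Slc27a2, Slc27a4 and Slc27a5. They were chosen by name, with earlier results of these data known. They are the cytosolic carriers and the membrane transporters of long-chain fatty acids that are well known in liver and in the tissues around it. They were found by their Ensembl identifiers among the 51826 listed. All 10 were among the 16428 genes that passed the filter on low counts. They were followed in bulk RNA sequencing of whole livers of wildtype Balb/C mice, a laboratory strain, over a reproductive cycle. The labels name no transgene and no agent. Per the series' description, breeding took place at 10 to 12 weeks of age, litters were brought to an even size and pups were taken away after 10 to 14 days of lactation. The sample annotation used here gives no age for the nulliparous mice, so age and stage cannot be told apart in comparisons with them. The 7 groups are 4 nulliparous mice (NUL), 3 mice on day 10 of lactation (LAC), and mice on post-weaning or involution day 2 (ID2, 3 mice), day 4 (ID4, 4), day 6 (ID6, 6) and day 8 (ID8, 3), with 4 regressed mice (REG) taken 4 weeks past weaning. Each of the 27 animals gave 1 library, so the spread given below is between animals.

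Fatty acid binding proteins, or FABPs, are small carriers that hold a long-chain fatty acid in a barrel-shaped pocket and move it through the watery cytosol to membranes, enzymes and nuclear receptors. Entry into the cell is helped by CD36, a scavenger receptor at the plasma membrane, and by the fatty acid transport proteins of the SLC27 family, which are also acyl-CoA synthetases and trap the fatty acid as its coenzyme A ester. In hepatocytes FABP1 is the abundant carrier, and SLC27A2 and SLC27A5 are the main transport proteins, the latter acting mostly on bile acids. Several of these genes are known targets of the fatty acid sensors PPAR alpha and PPAR gamma.

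Library depth, as the sum of the deposited expected counts, lay between 41120650 and 75664540. By the submitters' notes, 16 libraries came from 2 runs and 11 from 1 run. These were spread unevenly over the stages, with 2 runs for every ID4 library. The hepatocyte list, which checks the tissue, had a summed level led by Alb in every group, and the milk protein genes Csn2 and Wap were at 0 counts in all 27 libraries. The pancreas list stood far apart in ID2_31, at 1662 TPM outside its leading gene against 12.3 and 13.7 TPM in the other ID2 libraries. ID4_15 (119 TPM, stage median 15.04) and ID8_98b (48.2 TPM, stage median 15.4) also stood above the rest of their stages. The numbers in the sample titles lie under 200 for all 3 ID8 animals, 2 of the ID2 animals and 2 of the ID4 animals, and at 200 or over for all others, which the labels do not explain. For ID8 the stage and the number range cannot be told apart.

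Of the 10 genes, Fabp5 moved furthest: it stood at 64.3 ± 13.3 CPM in NUL (SD, n = 4), 336 ± 77.0 in LAC (n = 3), 31.6 ± 3.02 at ID4 (n = 4) and 223.98 ± 61.4 at ID8 (n = 3). CPM stands for the count scaled to the same TMM-adjusted total in all libraries, so it compares libraries and not genes. Fabp1, the liver carrier, fell to 0.511 of its NUL level at ID2 and returned by ID8. Cd36 was at its lowest mean in NUL, at 35.0 ± 9.73 CPM, and higher in all 6 other groups, with a call in 3 of them. Slc27a4 had means between 49.8 and 54.1 CPM in all 7 groups and was called in no comparison. In the joint test for any difference among the stages, 6 of the 10 genes were called at an adjusted p under 0.05 (edgeR quasi-likelihood F test, Benjamini-Hochberg adjustment over all genes tested) against 27% of all genes tested. The edgeR adjusted p was 2.75e-06 for Fabp1, 4.39e-05 for Fabp5, 0.00119 for Cd36, 0.00628 for Slc27a1, 0.014 for Fabp7 and 0.0309 for Fabp2. Fabp4, Slc27a2, Slc27a4 and Slc27a5 were not called in that test. The count ran from 4 to 8 over the settings: Fabp2 was lost without a filter (edgeR adjusted p = 0.0693) or with the title number as covariate (0.0903), Slc27a1 was lost with a score of clock genes as covariate (0.0609), and DESeq2 added Slc27a2 (0.0323) and Slc27a5 (0.0241). The title number as covariate added both too (edgeR adjusted p 0.0465 and 0.0479). At a threshold of 0.01 Fabp2 and Fabp7 dropped out. Fabp2 was also lost from that test without any 1 of LAC_200, LAC_213, LAC_240, ID4_13, ID4_215, ID8_101b or ID8_98b.

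**Figure D1:**
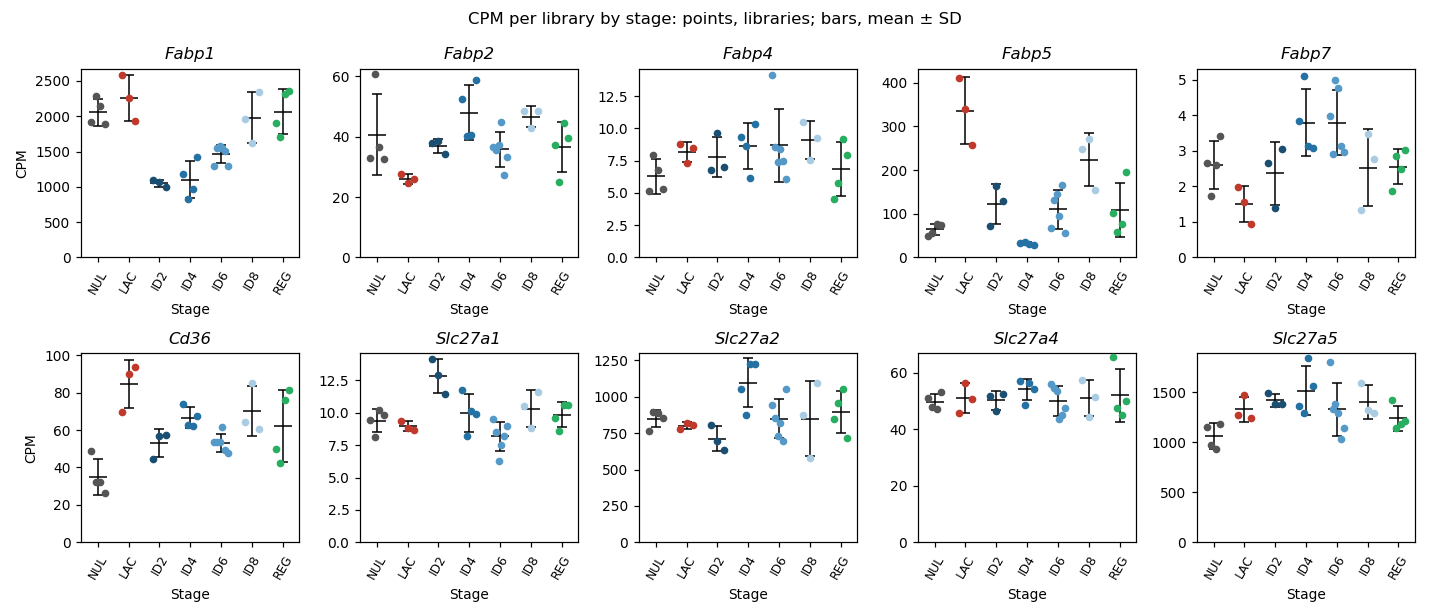
CPM of each of the 10 genes (y axes, starting at 0) by stage (x axes), where points are libraries and bars give the mean ± SD over the animals of a stage. Fabp1 is low at ID2 and ID4 (means 1051 and 1102 CPM), Fabp5 is high in LAC and ID8 and lowest at ID4, and Slc27a4 keeps means of 49.8 to 54.1 CPM.

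Every later stage was tested against NUL and against its predecessor, at the same threshold by the edgeR quasi-likelihood test. In LAC against NUL, Fabp5 and Cd36 rose and Fabp2 fell, 3 of the 10 genes, where 11.2% of all genes tested were called. At ID2 against NUL edgeR called Fabp1 alone, which fell (1 of 10, 3.24% of all genes), and DESeq2 also called Cd36 (adjusted p = 0.0325) and Slc27a1 (0.024), 3 of 10 against 5.73% of the genes it gave an adjusted p. At ID4, Cd36 and Slc27a5 were higher and Fabp1 lower than in NUL, 3 of 10 against 4.25% of all genes. None of the 10 was called at ID6 against NUL (1.08% of all genes), where 6 of the 10 had an unadjusted p under 0.05 (11.9% of all genes) and DESeq2 called 2, Fabp1 and Cd36 (3.05% by DESeq2). Fabp5 and Cd36 were higher at ID8 than in NUL, 2 of 10 against 0.499% of all genes. Against NUL, REG had 0 of 10 called (0.0852% of all genes), with Cd36 the only one of the 10 at an unadjusted p under 0.05 (7.17% of all genes) and the only one called by DESeq2 (0.467% by DESeq2). At the unadjusted threshold, 1 of 10 is near the share of all genes.

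Between neighbouring stages, the step from LAC to ID2 held the most calls: Fabp1, Fabp5 and Cd36 fell and Slc27a1 rose, 4 of 10 against 16.1% of all genes tested. From ID2 to ID4 Fabp5 alone was called and fell (1 of 10, 1.49% of all genes). From ID4 to ID6, Fabp1 and Fabp5 rose, 2 of 10 against 8.53% of all genes. Nothing was called from ID6 to ID8 (4.12% of all genes) or from ID8 to REG (0.0487% of all genes) among the 10. Unadjusted p values under 0.05 were found for 5 of the 10 from ID6 to ID8 (20.5% of all genes) and for 1 from ID8 to REG (9.02%), the latter near the share of all genes. DESeq2 called 2 genes, Fabp1 and Fabp5, in the first of these steps (9.39% by DESeq2) and 0 in the second (0.611%). All comparisons with NUL share the same 4 NUL libraries.

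**Figure D2:**
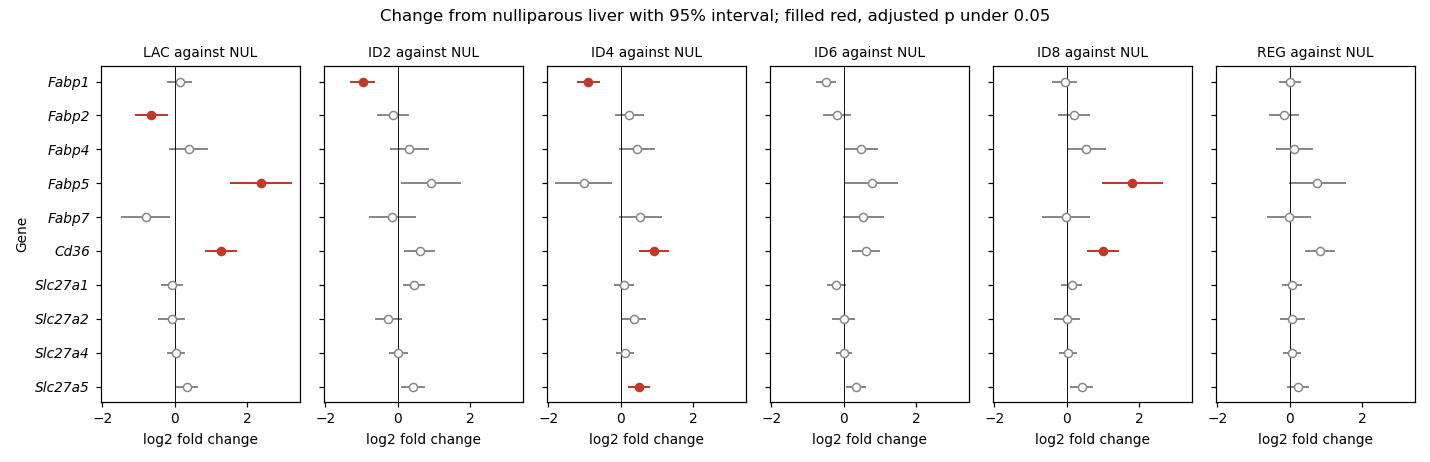
Log2 fold change of each of the 10 genes (y axis) against NUL with its 95% interval (x axes), 1 panel per stage, where filled red points have an edgeR adjusted p under 0.05. Fabp1 is left of 0 at ID2 (-0.97) and ID4 (-0.90), Fabp5 is at 2.39 in LAC, and the Cd36 points are right of 0 in all 6 panels.

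Counts without overlap between the libraries of the groups compared are a coarser view. Compared with NUL, 4 of the 10 genes had no overlap in LAC (21.4% of all genes tested), 3 at ID2 (17.9%), 4 at ID4 (11.6%), 1 at ID6 (3.38%), 3 at ID8 (11.9%) and 0 at REG (3.7%). Slc27a5 was among them in LAC and at ID2, ID4 and ID8, with the NUL libraries lowest each time. Between neighbouring stages the counts were 5 for ID2 against LAC (35.7% of all genes), 5 for ID4 against ID2 (16.2%), 2 for ID6 against ID4 (8.25%), 1 for ID8 against ID6 (10.1%) and 0 for REG against ID8 (7.71%).

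Levels of different genes were compared as the authors' TPM, which is scaled by gene length. In NUL, Fabp1 had 8608 ± 921 TPM (SD, n = 4), Slc27a5 687 ± 87.1, Slc27a2 515 ± 45.2, Fabp5 107 ± 22.7 and Fabp2 70.4 ± 23.8. The other 5 genes lay lower in TPM, Cd36 at 19.0 ± 3.92, Slc27a4 at 15.9 ± 0.999, Fabp4 at 11.6 ± 2.39, Slc27a1 at 6.78 ± 0.923 and Fabp7 at 5.81 ± 1.52. Fabp1 thus stood far above the other 9 genes in TPM. In bulk tissue, fewer cells of a type and less RNA per cell cannot be told apart.

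**Figure D3:**
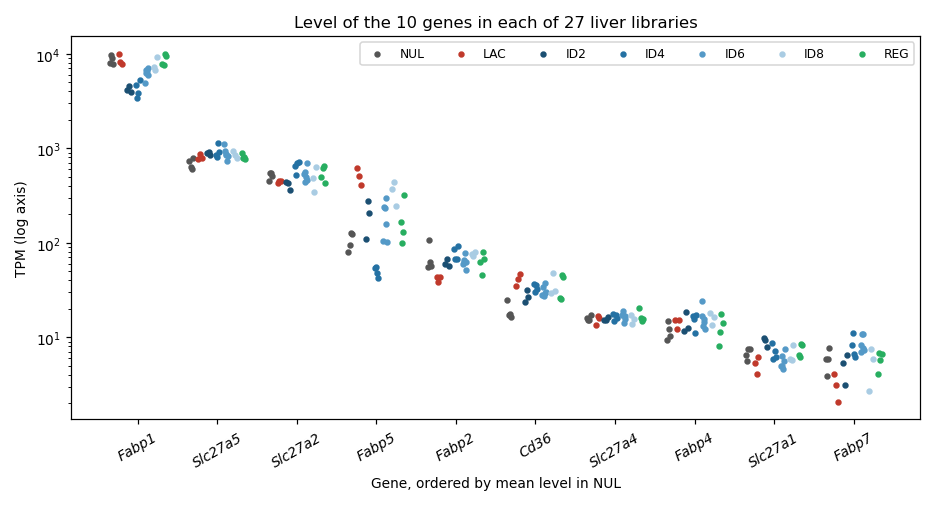
TPM of the 10 genes (y axis, log scale) in each of 27 libraries, with genes on the x axis in the order of their mean level in NUL and colours for the 7 stages. Fabp1 lies above all others, at 8608 TPM on average in NUL, and Fabp7 and Slc27a1 lie lowest, at 5.81 and 6.78 TPM.

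Fabp1 (ENSMUSG00000054422; chromosome 6, 71199827 to 71205023, plus strand, GRCm38) encodes the liver carrier. It also binds bile acids, haem and other hydrophobic ligands and passes fatty acids to PPAR alpha in the nucleus. The RefSeq promoter table, on GRCm38.p6, has an entry for it. The sequence of the 250 bases before its RefSeq start (chr6:71199629-71199878, plus strand) is shown because Fabp1 changed most among the abundant genes, with 2 motifs in capitals. They are a direct repeat of the nuclear receptor half-site, searched on both strands as 2 copies of AGGTCA in a row with 1 base of any kind between them and up to 2 mismatches, and the TATA box, searched as TATAAA.
Fabp1: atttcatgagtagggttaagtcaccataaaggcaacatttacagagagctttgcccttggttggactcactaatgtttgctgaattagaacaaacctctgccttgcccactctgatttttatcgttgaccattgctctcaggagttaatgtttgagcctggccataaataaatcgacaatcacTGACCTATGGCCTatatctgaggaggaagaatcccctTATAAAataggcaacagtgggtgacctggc
The repeat lay on the minus strand at bases -67 to -55 with 1 mismatch, and 3.86% of the 32817 RefSeq promoter windows hold a match at this tolerance (0.0396% hold an exact one). All windows searched, that of Fabp1 included, run from 250 bases before to 50 bases after the start, so they are longer than the stretch printed. The TATA box lay at -30 to -25, and 13.6% of windows hold one. Neither a STAT5 element (TTCNNNGAA, in 8.29% of windows) nor a D-box (TTATGNAA, 3.39%) was found in the Fabp1 window. A match of letters is a description of the window and not a bound site.

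The NUL libraries had 1919.6, 2288, 2139.8 and 1884 CPM of Fabp1, and the LAC libraries 2585, 2265 and 1932 CPM. At ID2 the libraries had 1093, 1063 and 998 CPM and at ID4 1181, 832, 967 and 1427 CPM. All 7 libraries of ID2 and ID4 were lower than all 7 of NUL and LAC. The 6 ID6 libraries lay between 1288 and 1584 CPM with a median of 1530.4, still under the lowest NUL library. The ID8 libraries had 1964, 1619.8 and 2343 CPM and the REG libraries 1901, 1699, 2309 and 2358 CPM, which covered the NUL range. In order of mean CPM the stages ran LAC, REG, NUL, ID8, ID6, ID4, ID2, and among neighbours in that order only ID8 and ID6 did not overlap.

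From LAC to ID2 the log2 fold change of Fabp1 was -1.10 (SE 0.16, 95% interval -1.44 to -0.77, edgeR adjusted p = 5.18e-05). Against NUL it was -0.97 at ID2 (SE 0.16, edgeR adjusted p = 5.49e-04) and -0.90 at ID4 (SE 0.14, edgeR adjusted p = 3e-04). The Fabp1 calls for ID2 against LAC and for ID4 against NUL were kept in every fit without 1 library and in the 10 other settings, which change the tool, the scaling, the filter, the covariates or the samples fitted at the same threshold. At ID6 the log2 fold change against NUL was -0.49, with an edgeR adjusted p of 0.0526. For the step from ID4 to ID6 the log2 fold change was 0.41 (SE 0.13, edgeR adjusted p = 0.0441). That call was lost without ID4_13 (0.0753), ID4_15 (0.183), ID4_211 (0.139), ID6_209 (0.0883), ID6_216 (0.0732), ID6_218 (0.0674) or ID6_230 (0.0705), all edgeR adjusted p values. It was also lost in 4 of the 10 other settings: with the title number (log2 fold change 0.32, edgeR adjusted p = 0.227), a score of clock genes (0.24, 0.246) or the number of runs (0.39, 0.0671) as a covariate, and in a fit of ID4 and ID6 alone (0.0706). At REG the log2 fold change of Fabp1 from NUL was 0.0064, with a 95% interval from -0.28 to 0.29.

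The ID2 libraries also differed from NUL in genes of the circadian clock. A clock score, the mean log2 CPM of 9 genes in phase with Dbp minus that of 5 in phase with Arntl, ran from -0.97 to 1.08 at ID2 and from -3.14 to -1.75 in NUL, and the time of day of collection is not given in the sources used here. With that score as a covariate the log2 fold change of Fabp1 at ID2 against NUL became -0.56 and its call was lost (edgeR adjusted p = 0.205). Over all genes, calls for that comparison fell from 532 to 35 with the covariate. The score ranges of ID2 and NUL did not overlap, so stage and score are hard to tell apart there. At ID4 against NUL, where the score ran from -2.04 to -0.90, the Fabp1 call was kept with the same covariate. Over the 27 libraries the correlation of Fabp1 log2 CPM with the score was -0.39, and -0.60 after the stage means were removed, given as a description of libraries that share depth and stage. The part of the clock in the fall of Fabp1 was not tested beyond this covariate.

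Fabp5 (ENSMUSG00000027533; chromosome 3, 10012548 to 10016607, plus strand) encodes the epidermal carrier, which is also found in fat cells, endothelium and macrophages and which hands fatty acids to PPAR beta/delta. Its expected counts were not whole in any of the 27 libraries, since reads are shared with near-identical copies. The processed pseudogene Gm6166 matched it at 98.289% over 409 bases and held between 5.09% and 9.93% of the counts of the pair, with a median of 7.08%. A further copy, Gm14328, had at most 1 count. With the copies summed into Fabp5, an alternative added after seeing the data, the log2 fold change for LAC against NUL was 2.41 against 2.39 without them, and no call of Fabp5 changed.

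In the NUL libraries Fabp5 had 49.2, 57.0, 76.5 and 74.4 CPM, and in the LAC libraries 411, 341 and 257 CPM. Every LAC library was above every NUL library, and the log2 fold change was 2.39 (SE 0.40, 95% interval 1.56 to 3.21, edgeR adjusted p = 5.58e-04), a 5.23-fold rise. At ID2 the 3 libraries had 72.6, 163 and 129.7 CPM, all under the LAC range, with ID2_224 inside that of NUL. The ID4 libraries had 33.9, 34.3, 30.3 and 27.96 CPM. They were the lowest 4 of the 27, each under every NUL library, and their SD of 3.02 CPM was the smallest of any stage.

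The 6 ID6 libraries held between 55.9 and 165 CPM of Fabp5, with a median of 113. The ID8 libraries had 247, 270.4 and 154 CPM, and the REG libraries 102, 57.9, 76.3 and 197 CPM. ID8 lay above all NUL libraries, while REG overlapped both NUL and ID8. The order of mean levels was LAC, ID8, ID2, ID6, REG, NUL and ID4, where only NUL and ID4 did not overlap as neighbours. The steps from ID6 to ID8 (log2 fold change 1.02, edgeR adjusted p = 0.0986) and from ID8 to REG (-1.05, 0.446) were not called.

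The rise of Fabp5 in LAC against NUL was kept in every fit without 1 library and in the 10 other settings, as was its rise from ID4 to ID6 (log2 fold change 1.80, SE 0.35, edgeR adjusted p = 0.00381). The fall from LAC to ID2 was -1.47 on the log2 scale (SE 0.43, edgeR adjusted p = 0.0231). It was lost without ID2_224 (edgeR adjusted p 0.109), ID2_39 (0.0616), LAC_200 (0.0776) or LAC_213 (0.0615), with the clock score as a covariate (0.0807, log2 fold change -1.58) and in a fit of both stages alone (0.0537, -1.46). The further fall from ID2 to ID4 was -1.94 (SE 0.39, edgeR adjusted p = 0.0134), and was lost without ID2_31, the library highest in pancreas transcripts (0.0909), or ID2_39 (0.0565), and with the clock score as a covariate (0.126), where the log2 fold change was -1.85. ID2_31 also had 75 counts of the adipocyte gene Adipoq, against 7 in ID2_224 and 4 in ID2_39. The part of such transcripts in the Fabp5 values was not tested.

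For ID8 against NUL the log2 fold change of Fabp5 was 1.80 (SE 0.39, edgeR adjusted p = 0.0412). It was kept only without ID8_98b among the 7 fits that leave out 1 library, and the edgeR adjusted p was 0.159 without ID8_101b, 0.125 without ID8_14, 0.0893 without NUL_220, 0.101 without NUL_221, 0.098 without NUL_226 and 0.0881 without NUL_227. With the title number as a covariate it was 1.27 (edgeR adjusted p = 0.42), where calls over all genes fell from 82 to 7. The call was also lost without a filter on low counts (0.0705), with the clock score (0.089) or the number of runs (0.0561) as a covariate, all by edgeR, and with limma on log2(TPM + 1) (0.0693) or log2(TPM + 0.1) (0.0717). In these 5 settings the log2 fold change stayed between 1.69 and 1.85. Among ID2 animals, Fabp5 averaged 146 CPM in the 2 with numbers under 200 and was 72.6 CPM in the other 1, and among ID4 animals it averaged 34.1 and 29.2 CPM in 2 and 2. Against NUL, ID4 had a log2 fold change of -1.02 without a call (edgeR adjusted p = 0.124), and a fit of the NUL and ID4 libraries alone called it (0.00251).

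Fabp2 (ENSMUSG00000023057; chromosome 3, 122895072 to 122899506, plus strand) encodes the intestinal carrier, best known from enterocytes. It was measured at 70.4 TPM on average in NUL liver. Of the intestinal list, genes other than Apoa4, which liver also makes, summed to at most 0.32 TPM in any library, and Lct, Sis and Alpi had at most 1, 2 and 6 counts. The antisense gene 4933405D12Rik overlaps Fabp2 and had at most 13 counts. The 250 bases before the RefSeq start of Fabp2 (chr3:122894822-122895071, plus strand) are shown beside those of Fabp1 because Fabp2 fell in LAC where Fabp1 did not. Its capitals mark a CCAAT box on the minus strand, searched as CCAAT on both strands.
Fabp2: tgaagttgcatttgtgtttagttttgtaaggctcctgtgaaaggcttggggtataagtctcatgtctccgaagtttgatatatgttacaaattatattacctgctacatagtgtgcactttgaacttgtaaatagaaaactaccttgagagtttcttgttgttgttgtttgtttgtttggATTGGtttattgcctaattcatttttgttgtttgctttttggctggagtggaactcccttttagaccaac
The CCAAT box lay at -70 to -66, and 37.4% of windows hold one. The direct repeat, the TATA box, the STAT5 element and the D-box of the search were not found in this window.

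Fabp2 had 32.9, 60.8, 36.5 and 32.7 CPM in the NUL libraries and 27.8, 24.6 and 25.9 CPM in LAC. The LAC libraries were the lower ones without overlap, and NUL_221 stood well above the other 3 NUL libraries. The log2 fold change was -0.64 (SE 0.20, 95% interval -1.06 to -0.22, edgeR adjusted p = 0.0425). Without NUL_221 it was -0.37 and was not called (edgeR adjusted p = 0.185). The call was also lost without LAC_200 (0.081), LAC_213 (0.149), LAC_240 (0.112) or NUL_226 (0.0523), without a filter on low counts (0.0795), with the clock score as a covariate (0.0638) and in a fit of NUL and LAC alone (0.123), again by edgeR. In the last 3 of these settings the log2 fold change was -0.65, -0.55 and -0.64. Means at the other stages ran from 35.8 CPM at ID6 to 48 CPM at ID4, and all neighbours in the order of means overlapped.

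Fabp7 (ENSMUSG00000019874; chromosome 10, 57784881 to 57788450, plus strand) encodes the brain carrier and is also expressed by Kupffer cells, the resident macrophages of the liver. It was the FABP gene of the lowest level, with 52 to 337 counts per library. The NUL libraries had 2.64, 1.74, 2.61 and 3.40 CPM, the LAC libraries 1.97, 1.56 and 0.952 CPM, and the ID4 libraries 3.85, 5.10, 3.13 and 3.06 CPM. The 6 ID6 libraries had 2.92 to 4.98 CPM. LAC lay under ID4 and ID6 with no overlap, but no single comparison called Fabp7. Its smallest edgeR adjusted p against NUL was 0.108, in LAC, with a log2 fold change of -0.80.

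Markers of Kupffer cells and macrophages moved with Fabp7. The 10 genes of that list summed to a median of 407 TPM in NUL (353 to 414), 258 in LAC (212 to 293), 546 at ID4 (509 to 609.5), 582 at ID6 (502 to 675) and 397 at ID8 (354 to 491). Against NUL, 6 of the 10 fell in LAC, 7 rose at ID4 and 6 rose at ID6 by the edgeR test, where 6% of all genes tested fell in LAC, 2.64% rose at ID4 and 0.402% rose at ID6. Across the 27 libraries the correlation of Fabp7 with the list was 0.85, and 0.68 after the stage means were removed, with no p, since the libraries share stage and depth. The genes whose log2 CPM was most like that of Fabp7 among 10512 compared were Fpr1 (Pearson r = 0.90), Cybb (0.89) and Adgre4 (0.89), which are genes of myeloid cells, each at 0.83 after the stage means were removed. Cybb had 7.95 ± 0.762 CPM in LAC (SD, n = 3), 13.1 ± 1.76 in NUL (n = 4) and 21.97 ± 4.27 at ID4 (n = 4). The part of macrophage number in the Fabp7 values was not tested.

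**Figure D4:**
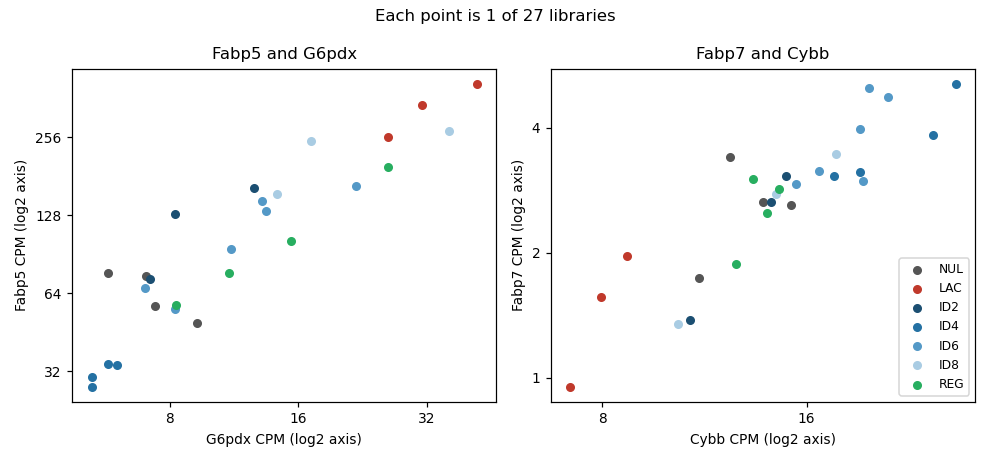
CPM of Fabp5 against that of G6pdx (left) and of Fabp7 against that of Cybb (right) on log2 axes, where each point is 1 of 27 libraries coloured by stage. Pearson r over the libraries is 0.92 for Fabp5 and G6pdx and 0.89 for Fabp7 and Cybb, and the LAC libraries lie at the upper right of the left panel and at the lower left of the right panel.

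Fabp4 (ENSMUSG00000062515; chromosome 3, 10204088 to 10208576, minus strand) encodes the adipocyte carrier, which endothelial cells and macrophages make too. It had means from 6.28 ± 1.33 CPM in NUL (SD, n = 4) to 9.12 ± 1.47 CPM at ID8 (n = 3), and all neighbours in the order of stages overlapped. No comparison called it. The 6 ID6 libraries had 6.05 to 14.2 CPM with a median of 7.94, and the highest was ID6_201. That library also had the highest count of Adipoq, a gene made by adipocytes, at 134 counts (2.95 TPM). Elsewhere in ID6 Adipoq had 3 to 58 counts. At ID2, ID2_31 had 75 counts of Adipoq, against 7 in ID2_224 and 4 in ID2_39. ID2_31 was also the ID2 library highest in Fabp4, at 9.61 CPM. The part of adipocyte transcripts in the Fabp4 values was not tested. The adipocyte list other than Car3, which hepatocytes also make, summed to 3.69 to 24.7 TPM per library, with its highest value in ID6. Lep was at 0 counts in 18 libraries.

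Together the 5 FABP genes summed to 8803 ± 942 TPM in NUL (SD over the animals of a stage, numbers as above), 9173 ± 1191 in LAC, 4512 ± 348 at ID2, 4433 ± 826 at ID4, 6526 ± 815 at ID6, 8155 ± 1235 at ID8 and 8977 ± 1322 at REG. The summed level at ID2, ID4 and ID6 lay under that of NUL without overlap (at most 7406 TPM at ID6, at least 7959 TPM in NUL). Fabp1 made up 97.8 ± 0.266% of the sum in NUL and 93.8 ± 0.457% in LAC. The share of Fabp5 was 1.23 ± 0.300% in NUL, 5.59 ± 0.529% in LAC, 4.32 ± 1.60% at ID2, 1.17 ± 0.317% at ID4, 2.83 ± 0.949% at ID6, 4.48 ± 1.78% at ID8 and 1.96 ± 0.907% at REG. The mean ratio of Fabp1 to Fabp5 in TPM was thus 83.4 ± 20.1 in NUL and 16.9 ± 1.78 in LAC. The mean of Fabp1 in LAC was 8599 TPM, against 8608 in NUL, while at ID2 it was 4235 TPM. TPM carries no TMM adjustment, so levels between stages can differ with the unit. In CPM the Fabp1 means were 2261 in LAC, 2058 in NUL and 1051 at ID2. At ID4, both Fabp1 and Fabp5 had lower means than in NUL, and the ratio was 87.9 ± 26.4.

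**Figure D5:**
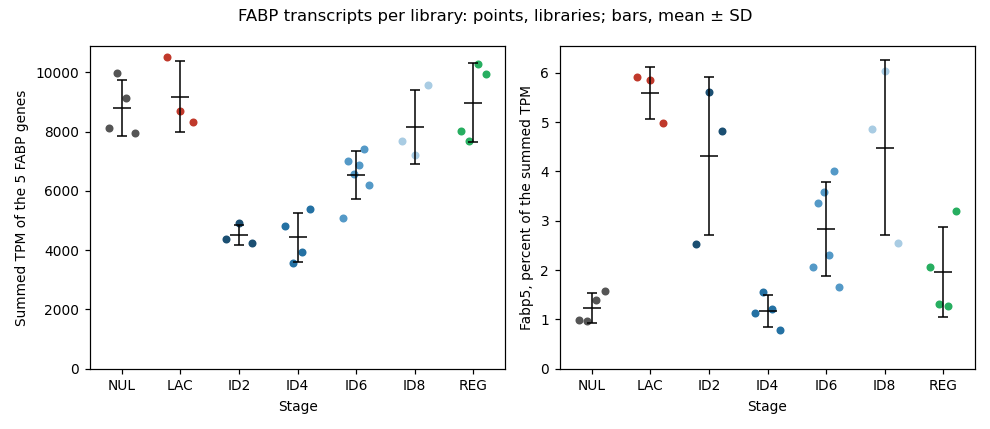
Summed TPM of the 5 FABP genes (left) and the percent of that sum from Fabp5 (right) by stage, with both y axes starting at 0, points for libraries and bars for the mean ± SD. The sum is lowest at ID2 and ID4 (4512 and 4433 TPM), and the Fabp5 share is highest in LAC (5.59%) and near 1% in NUL and at ID4 (1.23% and 1.17%).

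Cd36 (ENSMUSG00000002944; chromosome 5, 17781690 to 17888801, minus strand) encodes the scavenger receptor that takes up long-chain fatty acids and oxidised lipoproteins. The 250 bases before its RefSeq start (chr5:17835897-17836146, minus strand) lie inside the longer GENCODE gene, so this is 1 of its start sites. They are shown because Cd36 was called in LAC, at ID4 and at ID8, with the CCAAT box and a direct repeat in capitals.
Cd36: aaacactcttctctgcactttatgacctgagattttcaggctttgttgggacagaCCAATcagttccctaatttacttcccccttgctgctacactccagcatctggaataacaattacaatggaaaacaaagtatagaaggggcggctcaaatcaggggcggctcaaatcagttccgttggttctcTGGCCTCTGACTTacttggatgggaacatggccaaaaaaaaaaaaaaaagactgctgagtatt
The direct repeat had 2 mismatches and lay on the minus strand at -63 to -51, close in position to that of Fabp1. The CCAAT box lay at -195 to -191. The window held 2 GC boxes as well (GGGCGG, in 35.6% of windows, not in capitals) and no STAT5 element or D-box. Of the 7 of the 10 genes with a RefSeq entry, Fabp1 and Cd36 were those with the direct repeat at this tolerance.

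In NUL the Cd36 libraries had 48.9, 32.5, 32.3 and 26.2 CPM, and in LAC 69.7, 90.0 and 93.7 CPM. LAC was above NUL in every library, and the log2 fold change was 1.27 (SE 0.20, 95% interval 0.86 to 1.68, edgeR adjusted p = 2.32e-04). The ID2 libraries had 44.7, 57.0 and 57.6 CPM and the ID4 libraries 74.2, 62.7, 62.0 and 67.5 CPM. ID2 overlapped NUL through NUL_220, and ID4 lay wholly above both. Against NUL the log2 fold change at ID4 was 0.93 (SE 0.19, edgeR adjusted p = 0.00465). The calls in LAC and at ID4 were kept in every fit without 1 library and in the 10 other settings.

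The 6 ID6 libraries had 47.7 to 61.6 CPM of Cd36 with a median of 53.6. At ID8 the libraries had 64.1, 85.3 and 60.6 CPM, and at REG 49.9, 42.2, 75.9 and 81.4 CPM. The REG libraries were spread out, with REG_214 in the NUL range, REG_203 in that of ID6 and the other 2 in that of LAC. At ID8 the log2 fold change against NUL was 1.0 (SE 0.20, edgeR adjusted p = 0.0225). That call was lost without ID8_101b (0.0563), ID8_14 (0.113), NUL_221 (0.0581), NUL_226 (0.0934) or NUL_227 (0.082), and also when the number range was a covariate (0.328, log2 fold change 0.81) or NUL and ID8 were fitted alone (0.15, 0.99), all by edgeR. By limma it was lost on log2(TPM + 1) (0.0643, 0.87) and on log2(TPM + 0.1) (0.0569, 0.90). With the number range as a covariate, calls over all genes for ID8 against NUL fell from 82 to 7. At REG the log2 fold change was 0.83 (SE 0.19, 95% interval 0.45 to 1.22), with an unadjusted p of 1.78e-04 and an edgeR adjusted p of 0.0835. DESeq2 called it, at an adjusted p of 0.0019.

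From LAC to ID2 Cd36 fell by 0.67 on the log2 scale (SE 0.21, edgeR adjusted p = 0.0362). The call was lost without ID2_224 (0.148), ID2_31 (0.066), ID2_39 (0.0637), LAC_213 (0.119) or LAC_240 (0.11), by the same edgeR test, and kept without LAC_200. It was lost in 5 of the 10 other settings too: without a filter (0.0763), with the title number (0.0617) or the clock score (0.175) as a covariate, all by edgeR, and with limma on log2(TPM + 1) (0.0824) or log2(TPM + 0.1) (0.08). The log2 fold change was -0.66 without a filter, -0.80 with the title number, -0.61 with the clock score and -0.56 and -0.58 by limma. Cd36 is also made by endothelial cells and macrophages, whose lists moved between stages as well. From LAC to ID2, 6 of 10 endothelial and 5 of 10 Kupffer cell and macrophage genes rose and 0 fell. Of all genes, 8.48% rose and 7.64% fell in that step. In LAC, 4 of 10 endothelial and 6 of 10 Kupffer cell and macrophage genes fell and 0 rose against NUL by edgeR, where 6% of all genes tested fell and 5.19% rose. The endothelial list summed to between 147 and 165 TPM in LAC and between 199.8 and 210.3 TPM in NUL. At ID4 against NUL 7 of 10 Kupffer cell and macrophage genes rose (median log2 fold change 0.55, 2.64% of all genes rose), and the median of the endothelial list was 0.07. At ID8 against NUL the medians were 0.07 and 0.06, in that order. The part of these cells in the Cd36 values was not tested. Among the genes most like Cd36 over the 27 libraries were Setd3 and Mgmt (Pearson r = 0.78 for both). After the stage means were removed these correlations were 0.34 and 0.46.

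Slc27a5 (ENSMUSG00000030382; chromosome 7, 12988346 to 12998192, minus strand) encodes the bile acyl-CoA synthetase, which is made almost only in liver. The NUL libraries had 1155, 969, 929 and 1184 CPM, and the ID4 libraries 1357, 1296, 1841 and 1565 CPM. All ID4 libraries were above all NUL libraries, and the log2 fold change was 0.52 (SE 0.13, 95% interval 0.24 to 0.79, edgeR adjusted p = 0.0242). The call was lost without ID4_211 (0.109), ID4_215 (0.0578), NUL_221 (0.08) or NUL_226 (0.0895), by edgeR. LAC had 1274, 1475 and 1245 CPM and ID2 1494, 1381 and 1378 CPM, also above every NUL library. Their edgeR adjusted p values against NUL were 0.153 and 0.11. Means at the stages other than NUL ran from 1239 CPM at REG to 1515 CPM at ID4, and all neighbours in the order of means overlapped.

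Slc27a2 (ENSMUSG00000027359; chromosome 2, 126552407 to 126588243, plus strand) encodes the very long-chain acyl-CoA synthetase of liver and kidney. Its counts were not whole in 26 libraries, and Gm26697, on the opposite strand, shares sequence with it and had at most 22.8 counts. The ID2 libraries had 805, 697 and 635 CPM, and the ID4 libraries 1051, 878, 1227 and 1227 CPM. ID4 was above ID2 in every library, with a log2 fold change of 0.62 (SE 0.17) that was not called (edgeR adjusted p = 0.0531). DESeq2 (0.0101) and limma on log2(TPM + 1) (0.0488) called this difference. At the other stages the means lay between 801 and 894 CPM. Across the 27 libraries Slc27a2 ran opposite to Fabp5, with a Pearson r of -0.64, and -0.69 after the stage means were removed, the strongest negative value among the pairs of the 10 genes.

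Slc27a1 (ENSMUSG00000031808; chromosome 8, 71568882 to 71587302, plus strand) encodes the insulin-responsive transport protein of muscle and fat. The LAC libraries had 9.40, 8.84 and 8.67 CPM and the ID2 libraries 14.1, 12.9 and 11.5 CPM. ID2 was above LAC in each library, with a log2 fold change of 0.52 (SE 0.14, 95% interval 0.23 to 0.81, edgeR adjusted p = 0.013). This call was lost without ID2_224 (edgeR adjusted p = 0.0678) and kept in the 10 other settings. Against NUL, whose libraries had 9.44, 8.15, 10.2 and 9.82 CPM, ID2 was higher without overlap and was not called (log2 fold change 0.45, edgeR adjusted p = 0.054). DESeq2 called it (adjusted p = 0.024), as did edgeR in a fit of both groups alone (0.0498). The 6 ID6 libraries were the lowest by mean, at 6.31 to 9.50 CPM with a median of 8.38. Genes most like Slc27a1 were Abat (Pearson r = 0.77), Slc25a10 (0.76) and Dmgdh (0.75), which encode mitochondrial proteins. After the stage means were removed r was 0.34, 0.25 and 0.50.

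Slc27a4 (ENSMUSG00000059316; chromosome 2, 29802634 to 29817522, plus strand) encodes the transport protein best known from skin and intestine. Its libraries lay between 43.6 and 65.7 CPM. The 95% intervals of its log2 fold changes against NUL lay within -0.22 (ID2) and 0.33 (ID4), and its SEs were the smallest of the 10 genes in these comparisons. Slc27a4 and Slc27a5 varied together, with a Pearson r of 0.59 over the 27 libraries and 0.68 after the stage means were removed. The 4 SLC27 genes summed to 1224 ± 68.1 TPM in NUL (SD), 1269 ± 67.8 in LAC, 1313 ± 73.5 at ID2 and 1597 ± 217 at ID4. Slc27a5 made up 56.0 ± 4.74% of the sum in NUL and 67.0 ± 1.502% at ID2, and Slc27a2 42.2 ± 4.75% and 31.2 ± 1.57%. Unlike the FABP sum, the SLC27 sum had no stage with a mean under that of NUL.

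Genes most like Fabp1 and Fabp5 were found by the same rule. For Fabp1 they were Pcyt2 (Pearson r = 0.85), Spon2 (0.84) and Acot1 (0.84), and 0.71, 0.69 and 0.70 after the stage means were removed. Acot1, an acyl-CoA thioesterase and a PPAR alpha target, had 11.8 ± 3.13 CPM in NUL (SD, n = 4) and 1.88 ± 0.296 CPM at ID2 (n = 3). For Fabp5 they were G6pdx (0.92), Acacb (0.90) and Tkt (0.90), where G6pdx and Tkt encode enzymes of the pentose phosphate pathway and Acacb an acetyl-CoA carboxylase. G6pdx had 7.36 ± 1.45 CPM in NUL (SD, n = 4), 33.0 ± 8.17 in LAC (n = 3), 5.57 ± 0.374 at ID4 (n = 4) and 22.5 ± 11.9 at ID8 (n = 3). After the stage means were removed, r was 0.81 for Fabp5 with G6pdx and 0.65 and 0.66 for Acacb and Tkt. For Fabp2 the rule gave Ap4m1 (0.81), Rtn4 (0.81) and Perp (0.80), and 0.68, 0.67 and 0.72 within stages. These are correlations over libraries that share stages and were chosen as the highest among 10512 genes.

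Other genes of these pathways gave the setting in which the 10 genes moved. Of 21 PPAR gamma and lipogenic genes tested, 10 rose and 0 fell in LAC against NUL, with a median log2 fold change of 1.09 against -0.0094 over all genes tested, of which 5.19% rose and 6% fell. The largest rise in that list was in Pnpla3, a lipid droplet lipase (3.19, edgeR adjusted p = 0.0191). Between LAC and ID2 8 of the 21 fell and 1, Cidec (log2 fold change 1.54), rose, where 7.64% of all genes fell and 8.48% rose. From ID4 to ID6 7 rose and 0 fell, where 3.89% of all genes rose and 4.64% fell. At ID4 against NUL 2 fell (1.61% of all genes), of which Scd1, the stearoyl-CoA desaturase, fell most (-3.89).

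Of 25 PPAR alpha target genes, 3 rose and 4 fell in LAC against NUL (median log2 fold change -0.14), 1 rose and 4 fell at ID2 (-0.24), 0 rose and 5 fell at ID4 (-0.14), and 0 rose and 6 fell at ID6 (-0.38), where the median over all genes was between -0.017 and 0.0038 and 6%, 0.919%, 1.61% and 0.682% of all genes fell. The shares of all genes that rose were 5.19%, 2.32%, 2.64% and 0.402% in the same order. Acot1 fell most at ID2 (-2.65) and Cyp4a14, a fatty acid omega-hydroxylase, at ID4 (-2.57) and ID6 (-3.15). None was called at ID8 (0.499% of all genes) or REG (0.0852% of all genes) against NUL by edgeR, which is near the share of all genes. Among 23 other genes of fatty acid binding, transport and activation, 4 rose and 1 fell in LAC (median 0.057) and 0 rose and 4 fell at ID4 (-0.097), where 5.19% of all genes rose and 6% fell in LAC and 2.64% rose and 1.61% fell at ID4. Acsl4 had the largest rise in LAC (1.09) and Acsl3 the largest fall at ID4 (-1.62), both encoding acyl-CoA synthetases. Of 15 genes of lipoprotein lipase and triglyceride uptake, 3 rose and 2 fell in LAC (median 0.10) and 4 rose and 2 fell at ID4 (0.15), against the same shares of all genes. Lpl, which frees fatty acids from circulating triglyceride, led the rises, with a log2 fold change of 3.02 in LAC (edgeR adjusted p = 6.52e-06) and 1.43 at ID4 (0.00547, edgeR).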

How the data were processed

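Total RNA of 27 whole livers was extracted with Trizol, and libraries were made with a NEBNext Ultra kit, per the labels. Reads were aligned with STAR 2.6.1a and quantified with RSEM 1.3.1 on mm10/GRCm38, per the submitters' processing notes. The deposited tables give an expected count per gene, which is the authors' estimate of its reads, not normalized between libraries, per the file headers. They also give the authors' TPM, scaled by gene length and to the same total in each library, per the file headers. How strand was used is not given in the sources used here, so Fabp2 and Slc27a2, which overlap genes on the opposite strand, carry that uncertainty.

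Of 51826 identifiers, 51633 were found in GENCODE M21, which gave symbols and positions, and 193 were not. Promoter sequences are from RefSeq (GRCm38.p6). Of the 10 genes 7 had an entry there, and Fabp4, Fabp5 and Slc27a5 did not. Copies were sought with blastn 2.17.0 (at least 95% identity over 200 bases).

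Expected counts were rounded and fitted in R 4.3.3 with edgeR 4.0.16 (filterByExpr, TMM, robust quasi-likelihood fit with all 7 groups, 16428 genes), with Benjamini-Hochberg adjustment within each of 11 comparisons and a joint test, at an adjusted p under 0.05. Intervals are 95% and tests two-sided. No pair of libraries within a group was close to sampling noise. Alternatives were DESeq2 1.42.0, limma 3.58.1 on log2(TPM + 1) and log2(TPM + 0.1), other scaling and filters, covariates and leaving out each library. Likeness used Pearson r of log2 CPM (prior count 2) over 27 libraries, taking the 3 highest genes whose mean log2 CPM was 1 or more, for each gene called in the joint test. For Cd36, 1 of these is not reported here. From each pathway list and comparison, at most the called genes with the largest rise and the largest fall are named. Endothelial, macrophage, adipocyte and other cell lists are checks only; the genes Csn2, Wap, Adipoq, Lep, Lct, Sis and Alpi are defining markers from them. The 10 genes, the lists and the naming rule were chosen with earlier results of these data known.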

Additional observations from a re-analysis of the deposited data

Results flagged for a closer look

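In each of the 4 stages with at least 4 animals, the library farthest from the rest was looked for in each of the 10 genes, by setting its gap to the nearest library against the whole range (Dixon's 95% limit). Of the 40 sets of values, 2 passed the limit, and chance passes about 1 in 20. Fabp2 in NUL_221 had 60.8 CPM, where the other 3 NUL libraries had 32.7 to 36.5 CPM. Fabp4 in ID6_201 had 14.2 CPM, where the other 5 ID6 libraries had 6.05 to 8.58 CPM.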

How the results depend on the processing

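No direction of a called gene reversed under any setting run. The number of the 10 genes called moved as follows. For the joint test (6) it was 8 with DESeq2, 7 with the title number, 5 with no filter or the clock score and 4 at an adjusted p under 0.01. For LAC against NUL (3) it was 2 with no filter, the clock score, only the groups compared or the 0.01 threshold, and for ID4 against NUL (3) it was 4 with only the groups compared and 2 at the 0.01 threshold. For ID2 against NUL (1) it was 3 with DESeq2, 2 with only the groups compared and 0 with the clock score as a covariate. For ID6 against NUL (0) it was 2 with DESeq2 and 1 with DESeq2 size factors in edgeR, no filter, log2(TPM + 1), log2(TPM + 0.1), the clock score or only the groups compared. For ID8 against NUL (2) it was 1 with no filter, the clock score, the number of runs (chosen after seeing the data) or only the groups compared, and 0 with log2(TPM + 1), log2(TPM + 0.1), the title number or an adjusted p under 0.01. For REG against NUL (0) DESeq2 gave 1. For ID2 against LAC (4) it was 3 with no filter, log2(TPM + 1), log2(TPM + 0.1), the title number or the clock score, and 1 at the 0.01 threshold. For ID4 against ID2 (1) it was 2 with DESeq2, log2(TPM + 1), log2(TPM + 0.1) or only the groups compared, and 0 with the clock score or the 0.01 threshold. For ID6 against ID4 (2) it was 3 with the clock score and 1 with the number of runs or the 0.01 threshold. Counts that stayed level hid exchanges: for ID6 against ID4, Fabp1 gave way to Slc27a2 with the title number and to Cd36 with only the groups compared, and for ID2 against LAC, Fabp5 gave way to Fabp2 with only the groups compared. For ID8 against ID6 (0) it was 2 with DESeq2 and 1 with the clock score. The cause of these moves was not tested. Without 1 library the counts ran from 5 to 7 (joint test), 2 to 3 (LAC against NUL), 2 to 3 (ID4 against NUL), 1 to 2 (ID2 against NUL), 0 to 1 (ID6 against NUL), 0 to 2 (ID8 against NUL), 0 to 1 (REG against NUL), 1 to 3 (ID2 against LAC), 0 to 2 (ID4 against ID2), 1 to 2 (ID6 against ID4) and 0 to 1 (ID8 against ID6), and stayed at 0 for REG against ID8. On log2(TPM + 0.1) the median of all genes shifted to 0.126 for ID6 against ID4 and to -0.111 for ID8 against ID6. Calls over all genes moved with the setting as well. In ID2 against NUL they went from 532 to 867 with DESeq2 and to 35 with the clock score. In ID4 against ID2 they went from 244 to 521 and to 70, in that order. In ID8 against NUL they went from 82 to 238 with DESeq2, 98 with the clock score and 7 with the title number. The cause of these wider moves was not tested. No paired analysis was possible because no title number occurs in more than 1 group. Groups of 3 to 6 animals and a biological coefficient of variation of 0.19 limit what differences can be called.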
